A study of Mus musculus with 7 samples.

Results

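The sites described here are regions of open chromatin on the 19 mouse autosomes that carried a peak in all 7 samples of an ATAC-seq series. They were chosen by overlap of the deposited peak lists: each is an autosomal peak of the female embryonic stem cell (mESC) list that overlapped, by at least 1 bp, a peak in each of the 6 other lists. The rule gave 11323 sites, which is 41.1% (exact 95% interval 40.5 to 41.7) of the 27538 autosomal peaks of that list. They are called shared sites below. Presence in the lists chose them, so their presence and strength are given as description, with no test.

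ATAC-seq marks open DNA by the places where the Tn5 transposase can insert sequencing adapters. Chromatin that is open in unrelated cell types typically includes promoters of broadly used genes and sites bound by the insulator protein CTCF, while distal enhancers tend to open in a given cell type only. In a cross of distant strains, reads that cover a strain difference can be given to the maternal or paternal chromosome, and an autosomal site that is equally open on both gives about equal reads for each.

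The 7 samples were 1 per group, so no comparison between groups has a test. The 3 female lines came from a 129S1 x Cast:EiJ F1 cross, namely mESC of line F1216 grown with serum and LIF, wild-type neural progenitor cells (NPC) of line C2, and NPC of line sgdgb2 with the deltaFT deletion. Both NPC lines were grown in N2/B27 medium with FGF and EGF. The 4 other samples were male J1 mESC, called TXY, that all carry a doxycycline-inducible Xist on the X chromosome, either intact (WT) or without the RepA region (deltaRepA). Each TXY genotype was left untreated (no dox) or given 2 ug/mL doxycycline for 48 h (plus dox). Every NPC genotype is represented by a single line, so a difference between NPC genotypes cannot be told apart from a difference between lines. One label of the mESC sample calls it neural progenitors, against its title and culture medium, and the labels of both plus dox samples name a no dox file. Groups follow the titles in each case. Defining genes of the cell types were not examined because no annotation of the files' build was used. The lists of the female lines hold peaks reproducible between 2 libraries, with 6490181 reads in mESC peaks, 11014387 in wild-type NPC peaks and 11085592 in deltaFT NPC peaks. The TXY lists come from merged libraries, hold 125498 to 142526 peaks and give no read counts. Intervals below are exact binomial intervals (Clopper-Pearson) that cover counting error only.

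Whether an mESC peak was shared was decided almost wholly by the NPC lists. TXY lists overlapped 94.0% to 96.4% of the autosomal mESC peaks, the wild-type NPC list 46.3% and the deltaFT NPC list 48.1%. These shares are not on a par, since a longer list overlaps more peaks. The TXY lists hold 123996 to 140048 autosomal peaks, and the reproducible lists of wild-type and deltaFT NPC hold 39692 and 36036. The mESC peaks fell into a pair of large groups. Beside the 11323 shared sites, 10852 peaks overlapped exactly 4 of the 6 other lists, and of all mESC peaks only 344 overlapped none. A set of 10662 peaks lay in all 4 TXY lists and in neither reproducible NPC list. Some had a peak in the list of a single NPC library, from 1159 to 1784 of them depending on the library. The 10662 peaks are called stem-cell sites and serve as the comparison. The set was defined after the data were seen.

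**Figure D1:**
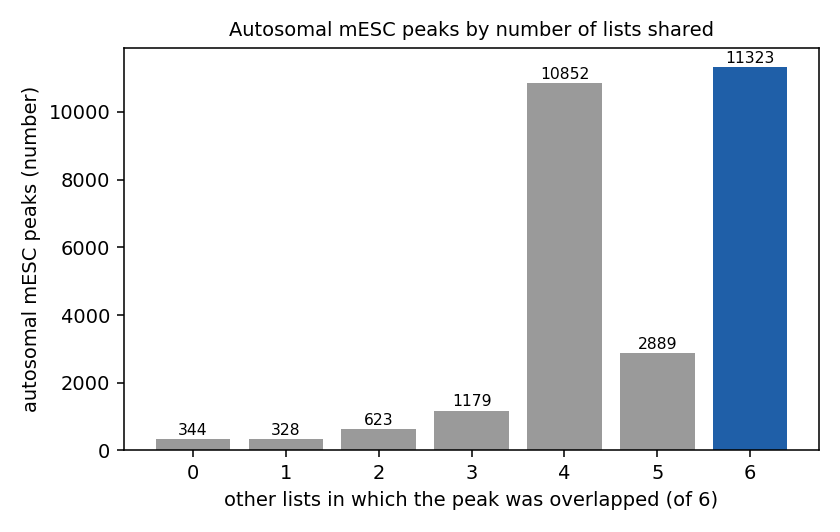
Number of autosomal mESC peaks (y axis) by the number of the 6 other lists that overlapped them (x axis), with the shared sites in blue. The bars at 4 and 6 lists, 10852 and 11323 peaks, are far above the others.

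Just outside the rule were 2889 peaks that missed exactly 1 list. For 1639 of them the missing list was wild-type NPC (median 133 mESC reads and 345 bp) and for 1132 it was deltaFT NPC (126 reads and 337 bp). Only 118 missed a TXY list, 4 to 53 for each. Just inside the rule, 65 shared sites had under 50 bp in common with at least 1 list (median 90 mESC reads and 262 bp), and 9 had under 10 bp. The smallest overlap with any list had a median of 409 bp, and at 10593 of the 11323 sites every list covered at least 50% of the mESC peak.

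Shared sites were the strong end of each list. In mESC they held a median of 247 reads (quartiles 147 and 401) over 506 bp, against 127.5 reads over 337 bp at stem-cell sites. Their best matching peaks held a median of 378 reads over 604 bp in wild-type NPC and 459 reads over 672 bp in deltaFT NPC. The 41.1% of mESC peaks that were shared held 61.0% of the reads in autosomal mESC peaks. They matched 28.3% of the wild-type NPC peaks, which held 50.4% of that list's reads, and 31.2% of the deltaFT NPC peaks, which held 54.4%. In the TXY lists, which are several times longer, they covered 7.65% to 8.52% of the autosomal peaks. By the authors' fold enrichment over local background, the median shared site stood at the 85.5th to 88.0th percentile of the 6 library lists and at the 89.2nd to 92.5th percentile of the 4 TXY lists. Stem-cell sites stood at the 72.3rd to 75.3rd percentile of the mESC libraries and the 82.1st to 84.9th of the TXY lists. A percentile depends on how many weak peaks a list holds, so percentiles in lists of different length, here and below, are not on a par.

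Being open everywhere did not mean having the same strength everywhere. Ranks of fold enrichment were compared over the 11259 shared sites that had a peak in all 10 library and TXY lists. Spearman's rho between the 2 libraries of 1 line was 0.79 to 0.81, and between libraries of the 2 NPC lines it was 0.72 to 0.75. Between mESC libraries and NPC libraries it dropped to 0.53 to 0.56. The female mESC and the male TXY cells, which differ in sex and origin but are both stem cells, gave 0.69 to 0.71, and TXY lists against NPC libraries gave 0.51 to 0.59. Among the TXY lists, no dox and plus dox of the same genotype gave 0.85 and 0.86, and the 2 genotypes at the same treatment 0.79 and 0.83. Agreement was thus lowest between stem cells and progenitors. TXY lists come from merged libraries, so their coefficients are not on a par with those of single libraries. Against the deltaRepA lists, TXY WT no dox gave 0.83 each time, above the libraries of any female line. TXY WT plus dox gave 0.78 and 0.79, which was not above them. These coefficients describe sites that share libraries and carry no p-value.

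**Figure D2:**
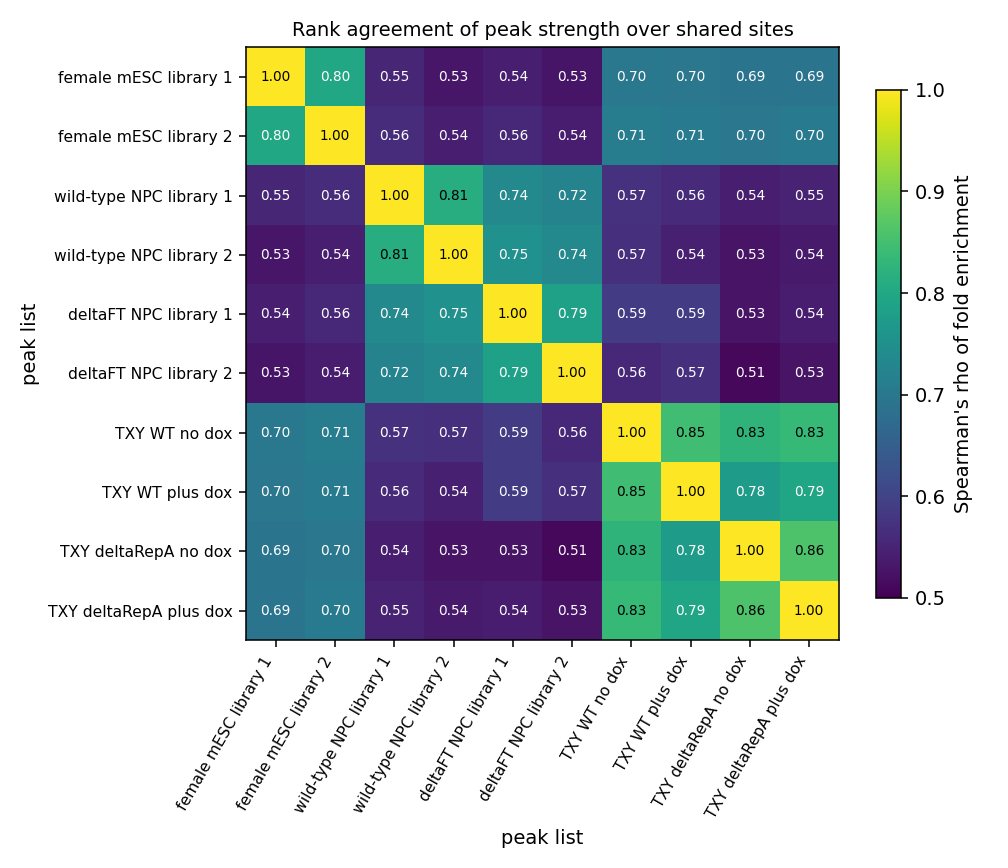
Spearman's rho (colour and printed value) of fold enrichment over 11259 shared sites between each pair of the 6 library lists of the female lines and the 4 TXY lists. The 4 NPC libraries form a block from 0.72 to 0.81, the 4 TXY lists a block from 0.78 to 0.86, and the pairs across the cell types lie between 0.51 and 0.59.

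Read counts per bp gave the size of these differences in the female lines. The log2 ratio of wild-type NPC over mESC, set to a median of 0 over the shared sites, had an SD across sites of 0.63. At 543 sites (4.80%, interval 4.41 to 5.21) it was more than 2-fold higher in wild-type NPC, and at 590 (5.21%, 4.81 to 5.64) more than 2-fold lower. Over all 11510 mESC peaks with a match in both NPC lists, the shares were 4.93% and 5.22%. The shared sites make up nearly all of those peaks, so the closeness is built into the comparison. For deltaFT NPC over mESC the SD was 0.54, and 315 sites (2.78%, background 2.88%) were past 2-fold higher and 435 (3.84%, background 3.87%) lower. Between the NPC lines, deltaFT over wild type, the SD was 0.46, and 152 sites (1.34%, background 1.35%) were past 2-fold higher and 205 (1.81%, background 1.82%) lower.

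How far these counts lean depends on the centring, and between the NPC lines so does the direction. When the reads were scaled to the total in autosomal peaks of each list, the median of wild-type NPC over mESC moved by -0.43 on the log2 scale. The split of 543 higher and 590 lower then became 132 higher and 1909 lower. For deltaFT over wild-type NPC the median moved by 0.07, and the split of 152 higher and 205 lower became 206 higher and 149 lower, so no lean in either direction holds under both scalings. For deltaFT NPC over mESC the median moved by -0.36, which gave 113 higher and 1228 lower. All ratios below are relative to the median of the shared sites.

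**Figure D3:**
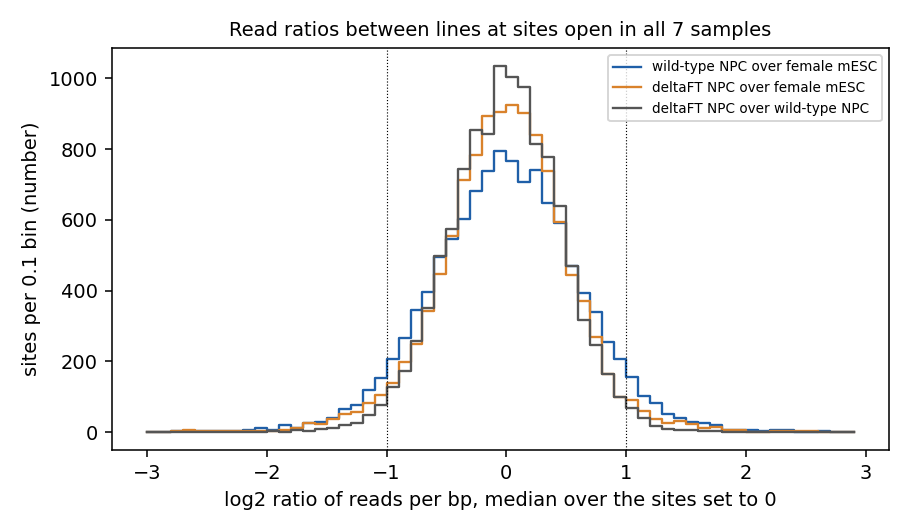
Histograms of the log2 ratio of reads per bp between lines over the 11323 shared sites, in bins of 0.1, with dotted lines at 2-fold; 11, 3 and 1 sites past a log2 value of 3 in either direction lie outside the axis for the 3 comparisons in the order of the legend. The curve of deltaFT over wild-type NPC is the narrowest (SD 0.46) and that of wild-type NPC over mESC the widest (SD 0.63).

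The NPC lines repeated each other in part. Of the 543 sites past 2-fold higher in wild-type NPC over mESC, 164 (30.2%) were past 2-fold higher in deltaFT NPC too, and of the 590 lower sites 236 were. These comparisons share the mESC sample. A second view used ranks of fold enrichment, which do not use the deposited read counts. At 1110 of the 11259 ranked shared sites (9.86%, background 8.40%) all 4 NPC libraries ranked the site higher than both mESC libraries and all 4 TXY lists. At 795 (7.06%, background 8.79%) all 4 ranked it lower. The background there is 13419 mESC peaks with a peak in all 10 lists. Those of them that are not shared sites were all missing from a reproducible NPC list. The rule thus removed peaks weak in NPC, and the differences from the background are at least partly built in. Of the 161 ranked sites past 2-fold higher in both NPC lines, 77 also had ranks that did not overlap in that direction, and of the 232 past 2-fold lower, 104 did.

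The 5 shared sites with the largest rise from mESC to NPC had 62 to 112 mESC reads each, against 723 to 3360 reads of wild-type NPC. The first, chr6:112160634-112160941 (mm9, as all positions here), held 75 reads in mESC, 1663 in wild-type NPC and 1312 in deltaFT NPC. Its log2 ratios over mESC were 3.13 and 2.57. The authors' fold enrichment was 4.29 and 4.48 in the mESC libraries, 4.51 to 5.43 in the TXY lists and 13.7 to 16.8 in the NPC libraries. Its enrichment in the TXY lists was close to that in the mESC lists, though each list's enrichment was computed on its own. The site chr17:66051496-66051852 held 95, 2176 and 1343 reads in the same order (log2 ratios 3.01 and 2.34), and chr3:133417896-133418188 held 62, 723 and 890 (2.56 and 1.71). The site chr14:106131411-106131827 held 101, 803 and 885 reads (2.37 and 2.46). In rank these 3 were not all weak in mESC or strong in NPC. They stood at the 36.9th to 72.9th percentile of the mESC libraries, and the chromosome 14 site at only the 79.5th to 83.7th of the NPC libraries, below the median shared site. Fold enrichment at the chromosome 17 site was 5.64 and 6.28 in the mESC libraries and 7.55 to 9.55 in the TXY lists. At the chromosome 3 site it was 5.85 and 4.71 against 5.84 to 7.14.

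The remaining one of the 5, chr7:75893681-75893922, differed most in fold enrichment between the female and male stem cells. It held 112 reads in mESC, 3360 in wild-type NPC and 1904 in deltaFT NPC, with log2 ratios of 2.66 and 1.74. Its fold enrichment was 4.27 and 3.47 in the mESC libraries, 11.7 to 12.8 in the TXY lists and 13.8 to 15.1 in the NPC libraries. It was a low peak of the female mESC lists only, at the 35.2nd and 6.08th percentile, and ranked at or above the 96.99th in each of the other 8 lists.

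The 5 sites with the largest fall were among the strongest peaks of the stem cells, and nearly all of their reads could not be given to an allele. The site chr18:40467650-40468005 held 1674 reads in mESC, 91 in wild-type NPC and 142 in deltaFT NPC (log2 ratios over mESC -4.43 and -3.99), with 0 allelic reads in any line. It stood at or above the 99.98th percentile of both mESC libraries and all TXY lists, and at the 74.1st to 96.2nd of the NPC libraries. The site chr15:74916680-74917511 held 12140, 1230 and 1764 reads (-3.64 and -3.23) with 1 allelic read over all lines, although it ranked at or above the 97.35th percentile in every list. The site chr5:147072517-147072981 held 4174, 465 and 877 reads (-3.49 and -2.66), chr11:108872916-108873468 held 5090, 660 and 1214 (-3.30 and -2.50), and chr8:15519795-15520127 held 918, 110 and 214 (-3.29 and -2.71). Their mESC allelic reads numbered 5, 26 and 0. Even in the NPC libraries all 5 stood at or above the 57.1st percentile. The chromosome 8 site stood at the 94.6th and 97.9th percentile of the TXY WT lists. Fold enrichment at the chromosome 15 site did not fall, at 14.6 and 14.7 in the mESC libraries and 14.4 to 16.1 in the NPC libraries. At each of the other sites it was lower in every NPC library than in both mESC libraries.

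The clearest property of the shared sites outside the rule was the evenness of their alleles. The allele columns of the files carry no strain names, so they are named by column as first-listed and second-listed. A site was called unequal when the first-listed allele held under 30% or over 70% of at least 10 allelic reads. In mESC the median first-listed share was 49.4% over 9824 shared sites (quartiles 43.7 and 54.8), and 638 (6.49%, interval 6.02 to 7%) were unequal. At stem-cell sites 1564 of 9049 (17.3%, 16.5 to 18.1) were unequal, with a median of 49.3%. Over all autosomal mESC peaks the share was 13.5%. In wild-type NPC the median at peaks matching shared sites was 50.5% and 603 of 9928 (6.07%, 5.61 to 6.56) were unequal, against 14.5% of all autosomal peaks of that list. In deltaFT NPC the median was 49.2% and 612 of 10154 (6.03%, 5.57 to 6.51) were unequal, against 12.1%. As a comparison in the NPC lines, progenitor sites were taken as peaks of both NPC lists that overlapped no stem-cell list, again defined after the data were seen. The lists of single mESC libraries counted here, a stricter exclusion than that of the stem-cell sites. Of these, 880 of 5694 (15.5%, 14.5 to 16.4) were unequal in wild-type NPC and 844 of 5710 (14.8%, 13.9 to 15.7) in deltaFT NPC.

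Shared sites hold more reads, and a share from few reads strays from 50% more easily, so the comparison was repeated within bins of allelic reads. With 100 to under 200 allelic reads, 2.75% (2.18 to 3.41) of 2841 shared sites and 15.9% (14.4 to 17.4) of 2214 stem-cell sites were unequal in mESC. In wild-type NPC the shares were 4.32% for shared and 12.9% for progenitor sites, and in deltaFT NPC 5.32% and 12.2%. Over all autosomal peaks in that bin, shared sites included, they were 9.75%, 10.5% and 9.27%. With 200 or more allelic reads the shares were 5.68% and 18.3% in mESC, 2.02% and 7.01% in wild-type NPC, and 2.68% and 7.09% in deltaFT NPC, beside 9.31%, 4.04% and 4.11% over all autosomal peaks of the lists. The intervals of shared and comparison sites did not overlap in any bin from 50 allelic reads up, in any of the 3 lines. That is description and no test. The intervals treat sites as independent, while sites of a segment can lean together, as those of chromosome 12 did in mESC (below). Peak calling uses the reads of both alleles together, so presence in a list is not wholly independent of allele balance, and the part of that in these shares was not tested.

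**Figure D4:**
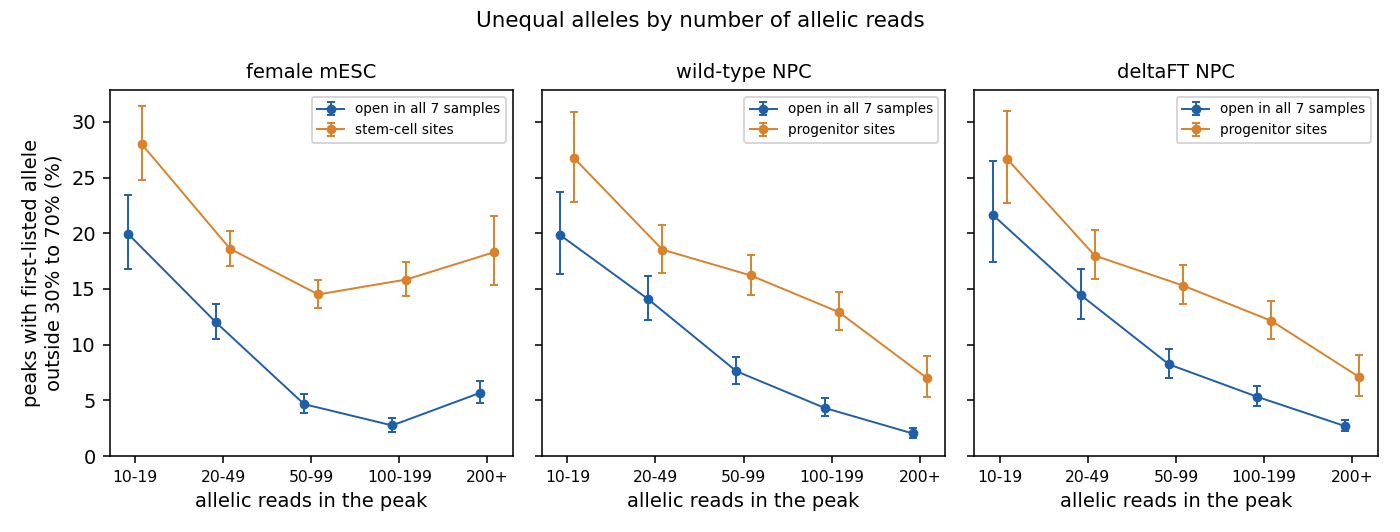
Percent of peaks whose first-listed allele lay outside 30% to 70% (y axis), by number of allelic reads in the peak (x axis), for shared sites (blue) and for stem-cell or progenitor sites (orange) in each female line; points are shares and bars exact 95% intervals. The blue points lie below the orange ones in every bin of every line, with 2.75% against 15.9% at 100 to under 200 reads in mESC.

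The rise of the mESC shares in the deepest bin was not seen without chromosome 12. With that chromosome left out, 0.912% (0.542 to 1.44) of 1973 shared sites with 200 or more allelic reads were unequal in mESC, and 9.61% of 541 stem-cell sites. At 100 to under 200 reads the shares were 1.32% and 13.1%. Over all depths, leaving out chromosome 12 lowered the mESC share at shared sites from 6.49% to 4.70% and at stem-cell sites from 17.3% to 14.8%. The NPC shares at shared sites were 6.10% and 6.04% without it.

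Most shared sites with enough allelic reads were unequal in no line. Of 11323 sites, 9601 had at least 10 allelic reads in all 3 lines, and at 4843 of these (50.4%) the first-listed share lay between 40% and 60% in each line. No line was unequal at 8264, 1 line at 1092, 2 lines at 190 and all 3 at 55 (0.573%, background 0.637%). That background is the 9728 mESC peaks with at least 10 allelic reads in each line. Shared sites make up nearly all of them, so the closeness is built in. No background was computed for the other counts. Of the 55, 52 leaned to the same allele in all 3 lines. Where at least 100 allelic reads were present in each line, the first-listed shares of the NPC lines differed by a median of 4.64 points over 4397 sites, with Pearson's r of 0.41 and Spearman's rho of 0.32. For wild-type NPC and mESC the difference was 5.40 points, with 0.27 and 0.22. The lean of a site in 1 line was thus weakly related to its lean in another, over sites that share strain differences, and counting error is part of each difference.

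At a few shared sites most allelic reads came from 1 allele in all 3 lines. How reads were assigned to alleles is not stated, and its part in these leans was not tested. The first-listed allele held under 20% in all 3 lines at 10 sites (0.104%, background 0.123%) and over 80% at 6 (0.0625%, background 0.0720%). The background is again the 9728 mESC peaks with at least 10 allelic reads in each line, nearly all of them shared sites. The site chr17:71312946-71313281 had 11 first-listed and 2013 second-listed reads in mESC, 2 and 590 in wild-type NPC, and 1 and 841 in deltaFT NPC, or 0.543%, 0.338% and 0.119% first-listed. The site chr16:17222316-17222635 had 9 and 1016 reads in mESC, 0 and 172 in wild-type NPC and 0 and 232 in deltaFT NPC, and chr16:57391360-57391847 had 20 and 486, 1 and 66, and 0 and 134. These 3 sites also held far more reads in mESC than in NPC, with log2 ratios of wild-type NPC over mESC of -2.08, -2.98 and -3.17. The site chr12:115219913-115220148 gave first-listed shares of 7.05%, 16.4% and 3.19%, and chr5:127721999-127722584 gave 15.2%, 7.78% and 14.0%.

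The opposite lean was complete at chr1:90173721-90174440, with 196 first-listed reads in mESC, 546 in wild-type NPC and 542 in deltaFT NPC and 0 second-listed reads in each. Counts of 0 there allow, at 3 reads of the total, a second-listed share of up to 1.53% in mESC, 0.549% in wild-type NPC and 0.554% in deltaFT NPC. The site chr17:56031074-56031588 leaned by the same amount in each line, with first-listed shares of 83.8%, 83.9% and 82.8%. The shares were 86.9%, 84.5% and 96.7% at chr2:142160318-142160786, 87.8%, 100% and 97.4% at chr10:84039081-84039447, and 98.0%, 97.3% and 81.4% at chr6:121288287-121288545. By the lowest percentile over the 7 samples (reads in the female lines, fold enrichment in TXY), the first 2 stood at 93.0 and 69.9, and those on chromosomes 2, 10 and 6 at 41.6, 36.2 and 19.99. Nothing in the files ties the lean to a strain.

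The share of mESC peaks that were shared sites differed between autosomes and was lowest on chromosome 12. On the 18 others it ran from 36.6% (34.5 to 38.8) on chromosome 1 to 47.7% (45.4 to 49.96) on chromosome 7. On chromosome 12 it was 29.0% (26.9 to 31.3). The low share lay past 70 Mb, where 317 of 1281 mESC peaks were shared (24.7%, 22.4 to 27.2), against 173 of 407 (42.5%, 37.7 to 47.5) before it. Past 70 Mb the median log2 ratio at shared sites was -0.66 for wild-type NPC over mESC and -0.63 for deltaFT NPC over mESC, and before it 0.02 and -0.06. The boundary was set after the data were seen.

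In windows of 10 Mb with at least 20 shared sites (220 windows with 10822 sites), the summed first-listed share lay between 40% and 60% in all but 6 windows in mESC, 4 in wild-type NPC and 8 in deltaFT NPC. In mESC, 5 of the 6 were the windows of chromosome 12 from 70 to 120 Mb. The 4 from 80 Mb on had shares of 24.4% to 26.7%, and the medians over single sites agreed at 24.5% to 26.5%. In wild-type NPC the same 4 windows lay at 48.2% to 52.4%. From 70 to 80 Mb the summed share was 37.35% and the median site 47.3%. The last mESC window, chromosome 17 from 70 to 80 Mb at 39.3%, rested on the 1-sided site at chr17:71312946-71313281, and without it the share was 50.2%.

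The windows that stood apart in the NPC lines were others. In deltaFT NPC the lowest shares were 30.7% on chromosome 8 (70 to 80 Mb, 102 sites), 31.6% on chromosome 3 (60 to 70 Mb), 32.9% and 34.7% on chromosome 11 (90 to 100 and 80 to 90 Mb) and 35.3% on chromosome 2 (0 to 10 Mb). In each of these the median log2 ratio of deltaFT over wild-type NPC was above 0, at 0.41, 0.50, 0.40, 0.22 and 0.44. The 0.22 lay within the middle 90% of windows (-0.38 to 0.33). Windows with near-even alleles reached such ratios too. Chromosome 2 from 70 to 80 Mb had 0.44 at a share of 47.7%, and chromosome 10 from 90 to 100 Mb had 0.40 at 47.1%. The highest shares in deltaFT NPC were 61.4% on chromosome 4 (50 to 60 Mb), 61.15% on chromosome 1 (120 to 130 Mb) and 60.6% on chromosome 12 (90 to 100 Mb). Their log2 ratios were 0.34, 0.15 and 0.10. In wild-type NPC the 4 windows lay at 60.55% to 62.6%, on chromosomes 10 (0 to 10 Mb), 11 (40 to 60 Mb) and 18 (10 to 20 Mb). The copy number of these segments was not measured apart from the peaks, and its part in the allele shares and read ratios was not tested.

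**Figure D5:**
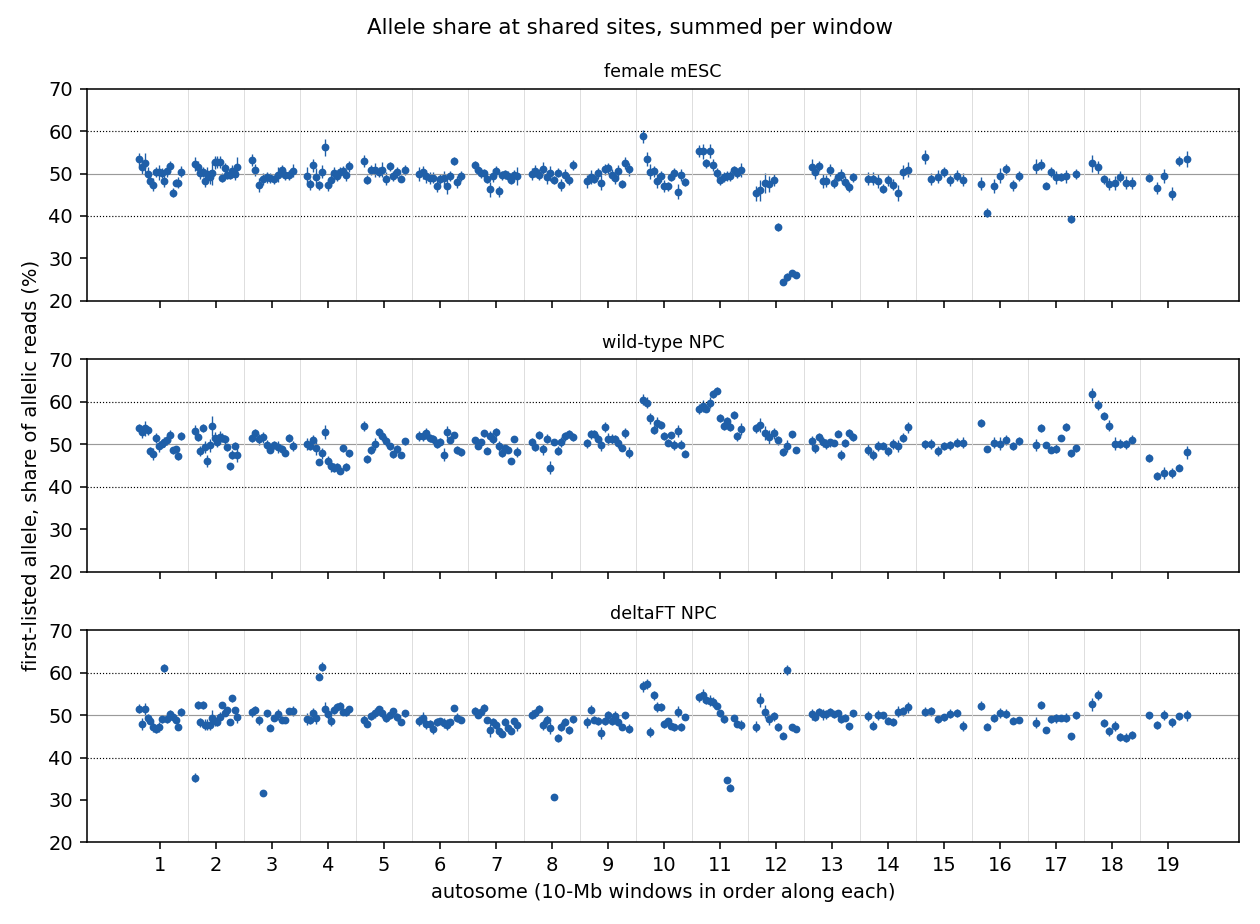
First-listed allele share of the summed allelic reads at shared sites in 220 windows of 10 Mb, in order along each autosome, for each female line, with exact 95% intervals and dotted lines at 40% and 60%. In mESC the windows of chromosome 12 fall to 24.4%, and in deltaFT NPC single windows on chromosomes 2, 3, 8 and 11 fall to between 30.7% and 35.3%.

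Some windows differed in reads while their alleles were even. From 0 to 40 Mb on chromosome 7, the median log2 ratio of wild-type NPC over mESC was 0.39 to 0.49 in the 4 windows and that of deltaFT over wild-type NPC -0.42 to -0.49. The first-listed shares there lay between 49.7% and 52.6% in the 3 lines. The window with the largest ratio of wild-type NPC over mESC, 0.71, was chromosome 13 from 60 to 70 Mb, where deltaFT over wild-type NPC was -0.54. Over the 220 windows the middle 90% of medians spanned -0.37 to 0.41 for wild-type NPC over mESC and -0.38 to 0.33 for deltaFT over wild-type NPC.

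The point of highest signal within a shared site was not at one fixed position in all samples. The distance between the summits of the strongest peaks had a median of 40 bp between the 2 mESC libraries, 28 bp in wild-type NPC and 30 bp in deltaFT NPC. Between TXY lists it was 40 to 46 bp (44 to 50 bp at stem-cell sites), and no dox and plus dox of 1 genotype, at 40 bp in WT and 46 bp in deltaRepA, were no farther apart than other TXY pairs. Between an mESC and an NPC library the median was 46 to 51 bp, and between libraries of the NPC lines 32 and 34 bp. The spread was wide: the upper quartile was 118 to 133 bp between mESC and NPC libraries, where 50.0% to 52.4% of sites had summits within 50 bp. Over all 4 TXY lists the summits of a site spanned a median of 98 bp, and 21.6% of shared sites had them within 50 bp, against 103 bp and 17.7% at stem-cell sites. Shared sites also lay closer together than stem-cell sites, with a median gap to the next of 68.7 kb against 94.8 kb, and 7.73% (7.25 to 8.24) of gaps under 1 kb against 5.54% (5.12 to 6%).

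Allele calls and ratios also differed with read depth. Split by mESC reads into 4 groups of equal size, the lowest (27 to 147 reads) had 10.45% of sites with enough allelic reads unequal in mESC, against 5.24%, 3.97% and 6.72% in the next 3 groups. In the bins of allelic reads, 19.97% of shared sites with 10 to 19 were unequal in mESC, against 2.75% with 100 to under 200. The part of counting error in these shares was not tested, and the 4 shares do not fall in order. The share past 2-fold between the NPC lines was 4.49%, 3.50%, 2.37% and 2.26%, where the part of counting error was not tested either. The share past 2-fold between wild-type NPC and mESC was 11.5%, 9.01%, 9.26% and 10.2%.

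The deepest shared sites took a larger part of the reads in mESC than in NPC. The 10 deepest held 6.31% of the reads at shared sites in mESC, 1.65% in wild-type NPC and 1.39% in deltaFT NPC. In mESC 115492 of their 237753 reads lay in 1 site. That site, chr17:39979981-39983708, was also the widest at 3728 bp and held 115492 reads in mESC, 11179 in wild-type NPC and 34503 in deltaFT NPC, with 0 allelic reads. Its fold enrichment nevertheless stood at or below the 2.62nd percentile of every list. The neighbouring peak chr17:39984461-39985264 held 23057, 4867 and 7991 reads, also with no allelic read. The next widest sites were chr12:78338869-78340746, 1878 bp with 2006, 525 and 1161 reads, and chr2:32985785-32987582, 1798 bp with 989, 377 and 618. The site chr11:3092960-3093870 held 17305 reads in mESC, 17262 in wild-type NPC and 1036 in deltaFT NPC, a log2 ratio between the NPC lines of -3.15. Its fold enrichment differed far less, at 5.59 and 6.47 in the wild-type NPC libraries and 4.13 and 3.61 in the deltaFT NPC libraries. It had 0 allelic reads in each line. The neighbouring peak and the one on chromosome 11 were picked after their values were seen. The ranks compared between lists above come from fold enrichment and do not use these counts.

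Sites without allelic reads were a general feature of the lists. Of 9928 shared sites with at least 100 mESC reads, 630 (6.35%, 5.87 to 6.84) had 0 allelic reads, as had 5.95% of stem-cell sites and 6.27% of all autosomal mESC peaks. Over 9545 shared sites with at least 100 reads in all 3 lines, 434 (4.55%) had none in any line and 252 had none in 1 or 2 lines. In mESC the median share of reads given to an allele was 39.3% at shared and 49.7% at stem-cell sites. In the NPC lines it was 39.1% at shared and 37.7% at progenitor sites for wild type, and 42.2% and 41.2% for deltaFT. Over all autosomal peaks it was 43.8% in mESC, 39.2% in wild-type NPC and 41.6% in deltaFT NPC. Shared sites thus lay under the all-peak median in mESC and close to it in the NPC lines.

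The strongest shared sites were chosen by the best value of their lowest percentile over the 7 samples, so their strength in each follows from the choice. The first, chr1:24619399-24620130, stood at or above the 99.91st percentile in all 10 library and TXY lists, with 19399 reads in mESC, 12764 in wild-type NPC and 5642 in deltaFT NPC but 0 allelic reads. It held 26.5 reads per bp in mESC, against a median of 0.496 over the shared sites. Of the 10 sites in this group, 3 had no allelic read in any line, the others being chr9:35112768-35113216 and chr8:19784438-19785140. Why these 3 had none was not tested. Where alleles could be counted, chr9:36574918-36575632 gave first-listed shares of 51.3%, 51.4% and 50.5% from 818, 1605 and 1413 allelic reads, and chr2:93997768-93998558 gave 47.5%, 47.6% and 49.6%. The sites chr16:58408135-58408706, chr1:153602055-153603025 and chr9:4376168-4376855 gave first-listed shares of 47.6% to 59.4% in every line, and chr17:17200587-17201280 had only 8, 12 and 57 allelic reads. The one site of the 10 that was unequal in any line, chr12:93087237-93087959, lay in the uneven part of chromosome 12 and gave shares of 25.6% (22.6 to 28.7), 57.6% and 65.9%, with mESC the lowest.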

How the data were processed

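Peak lists of 7 ATAC-seq samples, 1 per group, were used. Mapping was to mm9, with cutadapt, Bowtie2 and MACS2, per the submitters' processing notes. No source used here gives versions, settings, duplicate handling, any shift to the Tn5 cut site, or how reads were assigned to alleles. The authors deposited, for every female line, peaks reproducible in both of its libraries (irreproducible discovery rate at most 0.05) with a read count and 2 allele counts per peak, beside 1 list for each library. Those counts may cover 1 library or both, which no source used here states. The library and TXY lists hold the authors' fold enrichment (a ratio over local background), −log10 p and q values, and a score that was not used.

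Overlaps were found with pandas 2.3.3 and numpy 2.4.6, and intervals with scipy 1.17.1. The overlap rule was checked with bedtools, and the overlap, interval, allele and ratio steps were tested on made-up data. Each shared site was matched to the NPC peak of largest overlap and, in library and TXY lists, to the peak of highest fold enrichment. Log2 ratios use reads per bp, centred on their median over the shared sites. Fold enrichment was ranked within each library or TXY list only. The labels do not say whether the libraries of a line came from separate cultures, so their spread may be technical.

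The sites, sets and limits were chosen with earlier results of these data known. Single sites were named by rule: the 10 with the highest lowest percentile over the samples (by reads in the reproducible lists and by fold enrichment in the TXY lists), the 5 with the largest and smallest ratio of wild-type NPC over mESC with the same direction in deltaFT NPC and at least 50 reads in each line, the 5 deepest among those under 20% and over 80% first-listed in 3 lines, and the widest 3. Gene starts, motifs and sequences were not analysed here because the reference tables are of another build.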

Additional observations from a re-analysis of the deposited data

How the results depend on the processing

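Of 52 alternatives over 12 results, 27 stayed within the main value's 95% interval (for the number of sites, within 1.5 times) and 25 moved past it. The lists of single libraries in place of the reproducible ones gave 20645 to 21225 shared sites, 29.9% to 32.3% of their longer mESC lists. The shared share of mESC peaks was 38.5% when 50% of the peak had to be covered, 37.1% with TXY peaks of −log10 q of at least 5, 47.1% without the wild-type NPC list in the rule and 45.2% without the deltaFT NPC list. Leaving out any TXY list gave 11327 to 11376 sites. The share of unequal sites in mESC, wild-type NPC and deltaFT NPC was 1.32%, 1.99% and 2.21% outside 20% to 80%. It was 21.8%, 29.97% and 28.85% where the exact interval of a site left out 50%, and 4.23%, 4.06% and 4.50% with at least 50 allelic reads, a limit added after the data were seen. Without chromosome 12 the mESC share was 4.70%. The share past 2-fold between wild-type NPC and mESC was 18.03% scaled to total reads, 32.4% at 1.5-fold, 1.73% at 3-fold and 25.5% by reads per peak. Between the NPC lines it was 19.7% at 1.5-fold, 0.194% at 3-fold and 11.1% by reads per peak. Other limits and scalings change these by construction, and for reads per peak the cause was not tested. Allele medians and summit distances kept their values within the interval. No paired analysis was possible because each group holds 1 sample. Distances to gene starts were not run because the tables are of another build. Depth limits the allele calls: 9824 of the 11323 shared sites had at least 10 allelic reads in mESC.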
